A study of Mus musculus with 24 samples.

Results

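A set of 10 genes typical of cerebellar and hindbrain neurons is described here across 12 mouse brains: Cbln3, Gabra6, Fat2, Il16 and Barhl1 of cerebellar granule cells, Ppp1r17 and Car8 of Purkinje cells, En2 and Cnpy1 of the midbrain-hindbrain territory, and Slc6a5 of glycinergic neurons. They are 10 of the 53465 genes listed, and 9 of them passed the filter on low counts, which left 18425 genes to test. Gabra6 did not pass. The 10 were selected on what the cells they mark have in common and on their measured levels in these 12 libraries, CAST against WSB, so those levels are given as a description and their strain difference supports nothing by itself.

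The libraries were RNA-seq of total RNA from the brains of 6 CAST/EiJ mice (CAST) and 6 WSB/EiJ mice (WSB), both wild-derived inbred strains. Each library was read on 2 sequencing lanes, which were summed to 1 value per animal. The labels name tissue, strain and lane, and give no sex, age, treatment, extraction batch or dissection. No treatment, transgene or deletion is named for either group, and the labels do not say which parts of each brain were taken. A p-value therefore measures only the spread between these 12 animals. Gene-assigned reads ran from 32982569 to 46513232 per animal, and levels are given as CPM, each count scaled to the same library total. Neurons were well represented in each library, with Snap25, a presynaptic release protein, between 1765 and 2749 CPM.

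The cerebellum and the lower brainstem, below the midbrain, form the hindbrain. Cerebellar granule cells are the most numerous neurons of the mouse brain and send excitatory parallel fibres to Purkinje cells, the inhibitory output neurons of the cerebellar cortex. Glycine is a main inhibitory transmitter of the brainstem and spinal cord and is also used by Golgi cells and some cerebellar nuclear neurons. In RNA from a whole tissue sample, more cells of a type and more RNA per cell cannot be told apart.

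In the levels of these genes 3 libraries stood apart from the others. CAST_142 held the highest CAST value for 10 of the 10, against 32.8% of all tested genes for which it was the highest CAST animal. WSB_120 held the highest WSB value for 10 of the 10, against 18.5% of tested genes. CAST_170 was the highest of the 5 CAST animals other than CAST_142 for 7 of the 10, against 18.5% of tested genes. CAST_202 was the highest of those 5 for the other 3, Il16, Barhl1 and Slc6a5. Each result that follows is therefore given with these libraries and without them where they decide it.

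The sequence upstream of 3 of these genes is shown to place the starts of a pair of granule cell genes whose levels varied together and of the gene whose level in WSB_120 came nearest to that in CAST_142. The sequences are RefSeq promoters of mouse build GRCm38.p6, 5′ to 3′ on the gene's strand, 300 bases long from 250 bases before the start to 50 after. Capitals mark the half-site of nuclear factor I (NFI), a family of factors known to act in granule cell maturation, searched as TTGGC and, for the other strand, GCCAA. These are Cbln3 at chr14:55884207-55884506 on the minus strand, Gabra6 at chr11:42321023-42321322 on the minus strand, and Slc6a5 at chr7:49910049-49910348 on the plus strand.
Cbln3: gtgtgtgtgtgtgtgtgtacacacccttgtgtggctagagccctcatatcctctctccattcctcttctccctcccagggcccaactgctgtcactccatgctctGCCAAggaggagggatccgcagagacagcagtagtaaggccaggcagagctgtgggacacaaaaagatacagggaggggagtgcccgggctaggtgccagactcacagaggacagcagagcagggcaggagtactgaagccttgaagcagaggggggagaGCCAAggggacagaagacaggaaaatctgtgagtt
Gabra6: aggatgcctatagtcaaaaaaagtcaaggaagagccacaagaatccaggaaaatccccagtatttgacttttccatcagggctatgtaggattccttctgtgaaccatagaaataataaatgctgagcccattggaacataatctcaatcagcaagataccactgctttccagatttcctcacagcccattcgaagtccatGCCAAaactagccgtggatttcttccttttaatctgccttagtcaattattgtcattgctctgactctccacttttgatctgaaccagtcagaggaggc
Slc6a5: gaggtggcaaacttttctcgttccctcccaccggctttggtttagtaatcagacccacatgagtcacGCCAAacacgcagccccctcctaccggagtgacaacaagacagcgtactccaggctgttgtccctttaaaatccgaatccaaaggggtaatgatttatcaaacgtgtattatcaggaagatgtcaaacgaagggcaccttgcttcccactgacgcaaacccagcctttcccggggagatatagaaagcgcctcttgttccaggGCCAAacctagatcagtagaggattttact
Cbln3 held 2 matches, Gabra6 1 and the first promoter of Slc6a5 2. The half-site was found in 7 of the 12 promoters listed for 7 of the 10 genes, beside 46.7% of 32851 RefSeq promoters of that length. The E-box CAGATG, or CATCTG on the other strand, was in 5 of the 12, beside 17.2% of all promoters, and the homeodomain core TAATTA, the same on both strands, in 2 of the 12, beside 5.29%. These 2 motifs and NFI do not overlap in their letters, and a match is a description of the window, not a site in use. Promoters of En2, Ppp1r17 and Car8 are not shown.

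Cbln3, a cerebellin-family protein secreted at granule cell synapses, lies on chromosome 14 at 55878913 to 55884392 (GRCm38, GENCODE M21, minus strand). In CAST its level was 0.391 CPM at the lowest, 0.975 at the median and 343.7 at the highest, the last in CAST_142. In WSB it was 0.256 at the lowest, 0.605 at the median and 9.26 at the highest, the last in WSB_120. Only 3 animals exceeded 1.33 CPM: CAST_142, CAST_170 at 11.9 CPM and WSB_120. The strains overlapped, and the mean of 59.7 ± 139 CPM in CAST (SD, n = 6) fell to 0.714 ± 0.421 CPM (SD, n = 4) without CAST_142 and CAST_170. The WSB mean went from 1.99 ± 3.57 CPM (SD, n = 6) to 0.539 ± 0.247 CPM (SD, n = 5) without WSB_120.

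Gabra6 encodes the alpha-6 subunit of the GABA-A receptor, found in granule cells (chromosome 11, 42306437 to 42321072, minus strand). CAST_142 had 332.9 CPM, CAST_170 11.5 CPM and the 4 other CAST animals 0 to 0.760 CPM. WSB_120 had 6.58 CPM and the 5 other WSB animals 0.0512 to 0.391 CPM. CAST_142 stood 2465-fold above the median of the 5 other CAST animals and CAST_170 85.1-fold above that of its others, the largest folds of these 2 libraries among the 10 genes. WSB_120 stood 47.0-fold above the median of the other WSB animals, its second largest after Slc6a5. The median behind the first of these folds was only 0.135 CPM, so the fold rests on few reads in the low libraries.

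Fat2, an atypical cadherin of granule cells and their parallel fibres, is on chromosome 11 at 55250609 to 55336564 (minus strand). Its CAST levels were 0.825 CPM at the lowest, 1.64 at the median and 549.7 at the highest, and its WSB levels were 0.302, 0.731 and 10.3 CPM. CAST_142 was 487-fold, CAST_170 at 17.6 CPM 15.6-fold and WSB_120 18.2-fold above the median of the others of the strain. By level, the order of the 3 raised libraries was the same as for Cbln3 and Gabra6.

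Il16 has a neuronal form, a PDZ-domain protein found in granule cells, as well as a cytokine precursor made in lymphocytes (chromosome 7, 83642825 to 83745726, minus strand). CAST_142 had 60.8 CPM against 2.06 to 4.86 CPM in the 5 other CAST animals, and WSB_120 had 4.604 CPM against 0.792 to 2.504 CPM in the 5 other WSB animals. CAST_170, at 3.36 CPM, was 1.02-fold the median of the other CAST animals and so was not raised. Gene body overlap limits this gene, since 87.9% of its body lies outside other annotated genes and 16.5% of the 32-base words of its transcripts occur in other genes.

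Barhl1, a homeobox factor of the granule cell lineage, had the lowest level of the granule group in CAST_142, CAST_170 and WSB_120 (chromosome 2, 28907679 to 28916668, minus strand). CAST levels were 0.109 CPM at the lowest, 0.633 at the median and 8.70 in CAST_142, and WSB levels were 0.183, 0.220 and 1.37 CPM, the last in WSB_120. CAST_202 at 1.55 CPM and CAST_201 at 0.756 CPM both lay above CAST_170 at 0.511 CPM. Barhl1 and Il16 were thus the granule genes in which CAST_170 was not raised.

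**Figure D1:**
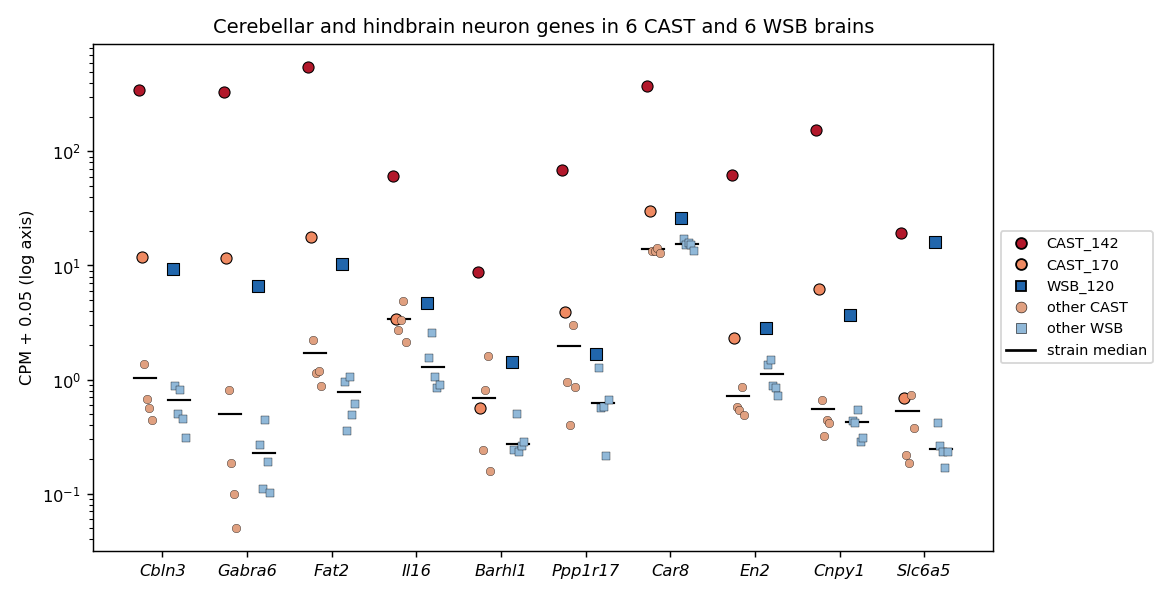
Level of each of the 10 genes in every animal, as CPM + 0.05 on a log axis, with circles for CAST, squares for WSB and a bar at each strain's median. CAST_142 is the highest animal for 10 of 10 genes, from 8.70 CPM (Barhl1) to 549.7 CPM (Fat2), and WSB_120 comes near it only for Slc6a5 (16.1 against 19.3 CPM).

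Of the Purkinje genes, Ppp1r17 encodes an inhibitor of protein phosphatases that is a substrate of cGMP-dependent kinase (chromosome 6, 56017497 to 56032689, plus strand). It reached 68.1 CPM in CAST_142, and the 5 other CAST animals had 0.351 to 3.85 CPM. CAST_202 at 2.97 CPM was close to CAST_170 at 3.85 CPM. WSB levels were 0.163 CPM at the lowest, 0.568 at the median and 1.62 at the highest, with WSB_120 at 1.62 CPM next to WSB_135 at 1.2 CPM. WSB_120 therefore stood less clear of its strain for Ppp1r17 than for Cbln3.

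Car8, a carbonic anhydrase-related protein without catalytic activity that binds the IP3 receptor of Purkinje cells, was the only 1 of the 10 genes above 10 CPM in every library (chromosome 4, 8143362 to 8239041, minus strand). CAST_142 had 375.6 CPM and CAST_170 29.7 CPM, with the 4 other CAST animals between 12.8 and 14.3 CPM. WSB_120 had 26.2 CPM and the 5 other WSB animals 13.2 to 17.03 CPM. Against this base level CAST_142 was 27.9-fold, CAST_170 2.21-fold and WSB_120 1.74-fold above the median of the others of the strain. Car8 was the 1 gene of the 10 for which WSB_120 was under 2-fold above its strain.

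En2, the engrailed homeobox factor of the midbrain and hindbrain, and Cnpy1, a regulator of FGF signalling at the midbrain-hindbrain boundary, are neighbours on chromosome 5, 28652 bp apart. En2 is at 28165694 to 28172166 on the plus strand and Cnpy1 at 28200819 to 28245806 on the minus strand. En2 in CAST was 0.434 CPM at the lowest, 0.666 at the median and 62.4 at the highest, and in WSB 0.665, 1.06 and 2.78 CPM. Cnpy1 in CAST was 0.270, 0.505 and 154.3 CPM, and in WSB 0.233, 0.374 and 3.64 CPM. Both genes had their highest values in CAST_142 and WSB_120, and CAST_170 was the next CAST animal, at 2.26 CPM for En2 and 6.21 CPM for Cnpy1. They differed in the remaining animals: the 4 CAST animals other than CAST_142 and CAST_170 had 0.434 to 0.810 CPM of En2 and the 5 other WSB animals 0.665 to 1.42 CPM, while for Cnpy1 the same animals had 0.270 to 0.617 CPM and 0.233 to 0.496 CPM.

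Slc6a5 encodes GlyT2, the glycine transporter of glycinergic nerve endings, on chromosome 7 at 49910146 to 49963856 (plus strand). CAST_142 had 19.3 CPM and the 5 other CAST animals 0.135 to 0.687 CPM. WSB_120 had 16.1 CPM and the 5 other WSB animals 0.117 to 0.364 CPM, so that it was 88.0-fold above the median of the other WSB animals and CAST_142 59.1-fold above that of the other CAST animals. CAST_170, at 0.638 CPM, lay below CAST_202 at 0.687 CPM. Slc6a5 was the 1 gene of the 10 in which WSB_120 came near CAST_142.

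The 3 raised libraries differed in the proportions of these genes. Per 100 CPM of Cbln3, CAST_142 had 5.61 CPM of Slc6a5, CAST_170 had 5.39 and WSB_120 had 173. For Gabra6 the same values were 96.8, 96.9 and 71.0, for Fat2 160, 148 and 111, and for Ppp1r17 19.8, 32.5 and 17.5. Among these ratios CAST_170 thus had nearly the proportions of CAST_142 for Gabra6, Fat2 and Slc6a5, and WSB_120 was apart mainly in Slc6a5. Other members departed too. As a percent of the CAST_142 level, WSB_120 had 2.36% of Cnpy1, 4.46% of En2, 6.96% of Car8, 7.57% of Il16 and 15.7% of Barhl1. Beside these it had 2.69% of Cbln3. For the same genes CAST_170 had from 3.62% (En2) to 7.92% (Car8), beside 3.45% of Cbln3. These are single libraries, so the differences have no replicate check.

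Homeobox genes of the Hox clusters, which are expressed from the hindbrain backward into the spinal cord, were read from a list of 21. None of them passed the filter, and 10 had no read in any library. Summed over the 21, WSB_120 had 399 reads, the 5 other WSB animals 0 to 9, CAST_142 23 and the 5 other CAST animals 1 to 7. Hoxb8 was the most abundant in WSB_120, at 5.36 CPM, and was at most 0.110 CPM in the other 11 libraries. Slc6a5 and the Hox genes were therefore high in the same WSB library, while CAST_142 had the higher Cbln3 and few Hox reads. Whether the amount of lower brainstem or spinal cord in a sample bears on this was not tested.

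**Figure D2:**
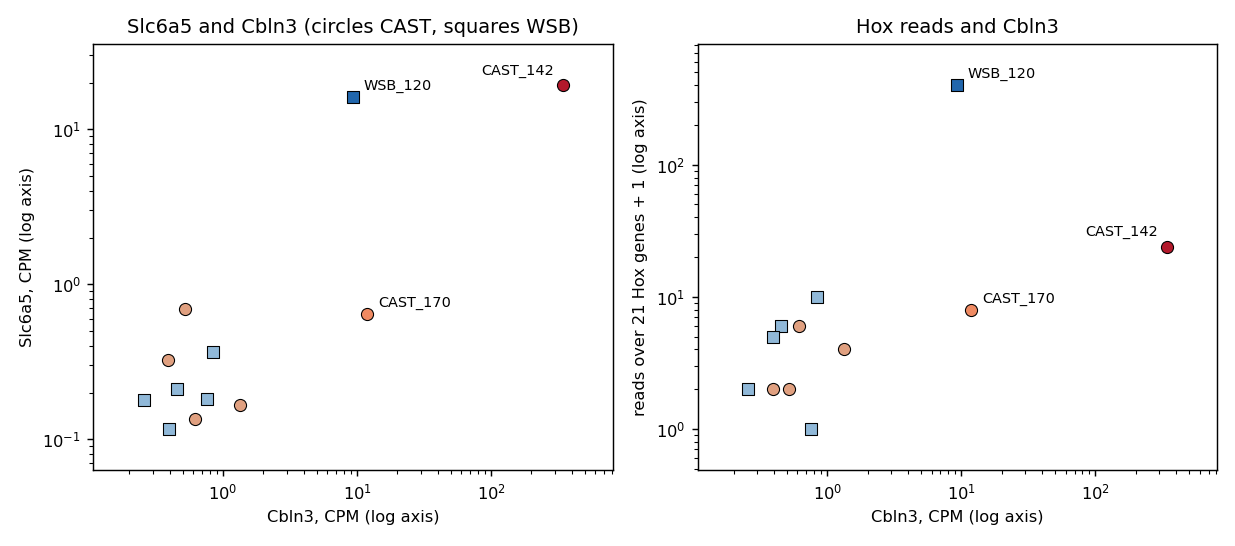
Slc6a5 level (left, CPM, log axis) and reads summed over 21 Hox genes plus 1 (right, log axis) against the Cbln3 level (CPM, log axis) in each of the 12 animals, with circles for CAST and squares for WSB. WSB_120 pairs 9.26 CPM of Cbln3 with 16.1 CPM of Slc6a5 and 399 Hox reads, and CAST_142 pairs 343.7 CPM of Cbln3 with 19.3 CPM and 23 reads.

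Counted over the 10 genes, CAST_142 was at least 2-fold above the median of the other CAST animals for 10, beside 3.64% of all tested genes. CAST_170 was so for 7, beside 0.380%, and WSB_120 for 9, beside 0.651%. The counts in the other libraries were low: CAST_200 had 2 (Gabra6 and Cbln3), beside 0.304%, and CAST_202 had 2, beside 1.30%. WSB_135, WSB_138 and WSB_147 had 1 each, beside 0.391%, 1.01% and 0.592%. The remaining CAST_201, CAST_203, WSB_169 and WSB_100 had 0, beside 0.331%, 0.195%, 0.407% and 1.40%. Over the 10 genes the CPM of CAST_142 on lane 5 was 0.934 to 1.05 times that on lane 6: its reads on lanes 5 and 6 were 7573 and 7641 for Cbln3, 7303 and 7431 for Gabra6 and 425 and 428 for Slc6a5.

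The levels of CAST_170 were a small and fairly even share of those of CAST_142. As a percent of the CAST_142 level, CAST_170 had 3.45% of Cbln3, 3.45% of Gabra6, 3.20% of Fat2, 4.03% of Cnpy1, 3.62% of En2 and 3.31% of Slc6a5, and 5.53% to 7.92% of Ppp1r17, Il16, Barhl1 and Car8. After the level of the other CAST animals was subtracted from both, the share ran from 2.06% to 4.52% for 8 of the genes and was 0.646% for Il16 and 0.458% for Barhl1, with a median over the 10 of 3.15%. At least 16-fold above the median of the other CAST animals in CAST_142 were 34 tested genes (0.185%), and for the 26 of them that are not among the 10 the median share in CAST_170 was 3.31%. The labels give the libraries of CAST_142, CAST_170 and CAST_200 the consecutive index numbers 17, 18 and 19, and the median share in CAST_200 was 0.102% for the 10 genes and 0.0677% for the 26. Over the 10 genes the share in CAST_200 ran from -6.89% for Barhl1 to 0.237% for Cbln3. CAST_202, with index number 21, had a median share of 0.403% for the 10 genes and 2.88% for the 26. Whether reads passed between libraries was not tested.

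In WSB_120 the same share was less even. It was 1.63% to 3.15% for Cbln3, Gabra6, Fat2, Cnpy1, En2, Ppp1r17 and Car8, 6.24% for Il16, 14.1% for Barhl1 and 83.5% for Slc6a5, with a median of 2.82%. For the 26 other genes the median in WSB_120 was 0.888%, and in CAST_202 it was 2.88%. WSB_120 thus shared the 10 genes with CAST_142 more than the 26 others, a comparison of medians in single libraries without a test.

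Other genes of the same cell types were read from lists. In CAST_142, 13 of 16 tested other granule cell genes were at least 2-fold above the median of the other CAST animals and 0 were 2-fold below, with a list median of 1.78 on the log2 scale. Of 18 tested other Purkinje cell genes 13 were 2-fold above and 0 below, with a median of 1.33, and of 7 cerebellar interneuron and Bergmann glia genes 5 were above and 0 below, with a median of 2.23. The median over all tested genes was -0.0028 in this library. Striatal genes went the other way: 11 of 11 were at least 2-fold below, beside 4.55% of all tested genes, with a median of -3.28. Choroid plexus genes were also low (5 of 5 below, median -1.76). The thalamus and hypothalamus list was mixed, with 6 of 12 below and a median of -1.81. Its low genes were Hcrt, Pmch, Avp, Oxt, Nkx2-1 and Gbx2, from -2.98 (Hcrt) to -5.23 (Avp). Tcf7l2 (0.22), Lef1 (-0.03), Prkcd (0.07), Agrp (0.27), Pomc (-0.36) and Plekhg1 (-0.65) were not 2-fold changed. Pan-neuronal genes had 0 of 7 past 2-fold in either direction, with a median of 0.02. Cortex and hippocampus genes (0 of 12 above, 1 below, median -0.60) and olfactory bulb genes (1 of 6 above, 2 below, median 0.01) were less changed. The other hindbrain and brainstem neuron genes had 4 of 9 above and 1 below in CAST_142, with a median of 0.82. That list was not particular to CAST_142: CAST_202 had 4 of 9 above and 0 below, and WSB_138 had 3 of 9 above. Its sum was 130.2 CPM in CAST_142, 154.9 CPM in CAST_202 and 130.4 CPM in WSB_138. The patterning genes had 2 of 7 above and 2 below in CAST_142, with a median of -0.23. In CAST_142 the 10 genes were thus high together with other granule, Purkinje, interneuron and Bergmann glia genes. Striatal and choroid plexus genes and 6 of the 12 thalamus and hypothalamus genes were low there. The part of the amount of cerebellum or striatum sampled was not tested.

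The cerebellar lists had few genes past 2-fold in the other raised libraries. In CAST_142 the largest excess was 3.05 (log2) among the tested granule list and 4.83 among the Purkinje list. Whether CAST_170 or WSB_120 held a fixed share of these excesses was not tested. CAST_170 had 0 of 16 other granule and 0 of 18 other Purkinje genes at least 2-fold above its strain. The list medians there were 0.11 and 0.08 on the log2 scale. A share of 3.15%, the median for the 10 genes in CAST_170, can leave genes with such excesses under 2-fold. These counts of 0 therefore cannot show that such a share was absent. WSB_120 had 0 of 16 and 0 of 18 above and 1 of each below, and 4 of 6 olfactory bulb genes below, beside 1.82% of all tested genes. Of the 7 interneuron and Bergmann glia genes it had 2 above, beside 0.651% of all tested genes, and 1 below. Of 12 thalamus and hypothalamus genes WSB_120 had 1 above and 5 below, while WSB_169 and WSB_100 had 6 and 7 below. Striatal genes summed to 1142 CPM in WSB_120, the lowest WSB value. Of these, 1 of 11 was at least 2-fold below there, with a list median of -0.82 (log2). The other granule genes summed to 2333 CPM in CAST_142, 910 CPM in CAST_170, the highest of the 5 other CAST animals, and 811 to 847 CPM in the remaining 4. In WSB they summed to 821 to 1144 CPM, with WSB_120 at 846 CPM. The Purkinje list summed to 5042 CPM in CAST_142 and 2026 to 2233 CPM in the other CAST animals, with CAST_170 at 2113 CPM. In WSB it summed to 2008 to 2266 CPM, with WSB_120 at 2266 CPM and WSB_138 at 2262 CPM. The interneuron and Bergmann glia list summed to 179.7 to 191.9 CPM in the 5 other CAST animals, with CAST_170 at 191.9 CPM and CAST_203 at 190.9 CPM. In WSB it summed to 186.5 to 227.2 CPM, with WSB_120 at 227.2 CPM and WSB_135 at 222.3 CPM. WSB_120 in both lists, and CAST_170 in the second, thus lay close to the next animal. All of these sums come from single libraries. Among defining markers, Pcp2 of Purkinje cells and Cbln1, Cdh15, Neurod1 and Mab21l1 of granule cells were listed at 0 in each of the 12 libraries, CAST_142 included, and so carry no information here.

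**Figure D3:**
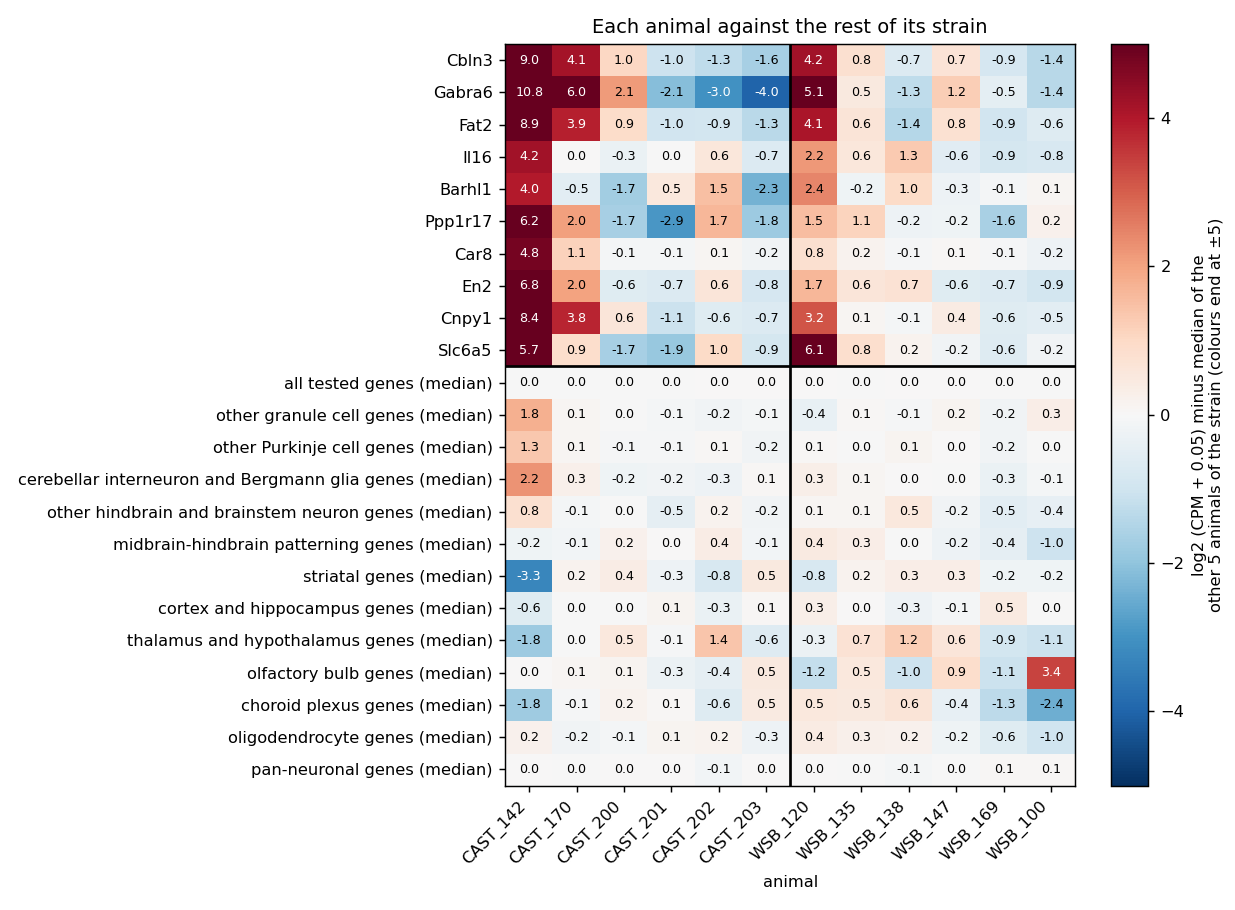
Difference of log2 (CPM + 0.05) in each animal from the median of the other 5 animals of its strain, for the 10 genes (upper block) and for the list medians of other genes (lower block). Red is higher and blue lower, with colours ending at ±5. CAST_142 is high for the 10 genes and for the cerebellar lists and low for the striatal list (-3.28), and CAST_170 and WSB_120 are at least 2-fold above their strain for 7 and 9 of the 10 genes.

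Co-variation over the libraries was measured as Pearson's r of log2 (CPM + 0.05), after each strain's mean was subtracted, for the 45 pairs of the 10 genes. These values are a description, since the points share libraries and depth and the genes were chosen with their levels known. Over 12 animals the median r was 0.875, from 0.695 to 0.992, and 18 pairs (40.0%) were above 0.9, against 0.171% of all gene pairs. Without CAST_142 the median was 0.718, from 0.328 to 0.978, with 12 pairs (26.7%) above 0.9 against 0.0898% of gene pairs. The highest were then Cbln3 with Fat2 (0.978), with Cnpy1 (0.976) and with Gabra6 (0.975).

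Without CAST_142, CAST_170 and WSB_120, a set chosen after the data were seen, the median r over the 9 remaining animals was 0.385, from -0.384 to 0.927. Of the 45 pairs 33 were positive and 3 (6.67%) were above 0.9, against 0.313% of gene pairs. These were En2 with Il16 (0.927), Ppp1r17 with Slc6a5 (0.902) and Cbln3 with Gabra6 (0.90). Gabra6 with Fat2 (0.826), Cbln3 with Fat2 (0.778) and Cbln3 with Cnpy1 (0.766) followed. The 3 libraries were left out for their high levels of these same genes, so the fall in r followed from that choice and nothing is read from it. Cbln3, Gabra6 and Fat2 still correlated with each other over the 9 low libraries, at levels of at most 2.16 CPM. Gabra6 had at most 32 reads in any of these libraries, so its r values are not firm.

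Within WSB alone, each gene's level was compared with the mean level of the other granule cell genes over 6 animals. Pearson's r ran from -0.67 for Car8 (two-sided exact permutation p = 0.122) to 0.01 for Ppp1r17 (p = 0.989), and Spearman's rho from -0.66 for En2 (p = 0.175) to -0.03 for Ppp1r17 (p = 1). None of the 20 relations, r and rho for each gene, passed, with Benjamini-Hochberg adjusted p from 0.547 to 1 in these exact permutation tests. WSB_120 and WSB_169 were the animals farthest from the median of the list, and without them r over 4 animals ran from -0.996 for En2 to 0.372 for Fat2. No gene of the 10 thus had a detectable relation to the level of this list among these 6 animals. That level was highest in WSB_100, where 6 of 6 olfactory bulb genes were at least 2-fold above the strain, beside 1.40% of all tested genes. In WSB the list summed to 821 to 1144 CPM, while Cbln3 had 0.256 to 9.26 CPM. The list level therefore need not follow granule cells, and these r values cannot show how the 10 genes relate to them.

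The genes whose pattern was most like that of the 10 were ranked by their r with the mean of the 10 standardized levels, strain means subtracted, among 13443 protein-coding genes on no list and with a mean log2 CPM of at least 0. Over 12 animals these were Crtam (0.959), Atp2a3 (0.955), Tmem229b (0.954), Fnip2 (0.953), Phactr4 (0.951) and Pex16 (0.950). Crtam, a cell surface receptor also known in lymphocytes, had 60.8 CPM in CAST_142, 2.87 CPM in CAST_170, 1.24 CPM in WSB_120 and 0.150 to 0.854 CPM in the other 9 libraries. Atp2a3, a calcium pump of the endoplasmic reticulum, had 112.8 CPM in CAST_142, 13.5 CPM in CAST_170 and 11.8 CPM in WSB_120. Over the 11 animals without CAST_142 the leading genes were Cep76 (0.927), Smarcd2 (0.923), Atp2a3 (0.917), Traf3 (0.904), Fabp5 (0.899) and Mapkapk2 (0.888). This r leaves out CAST_142 and gives no size of change. In CAST_142 Fabp5 had 10.5 CPM, below the 12.99 to 16.1 CPM of the other CAST animals. Traf3, at 80.6 CPM, lay within their 71.97 to 87.6 CPM. Mapkapk2 had 38.4 CPM against 30.95 to 34.8 CPM. Cep76 (39.8 CPM) and Smarcd2 (75.6 CPM) were raised there, against at most 10.2 and 23.1 CPM in the other CAST animals. Fabp5 and Traf3 thus did not share the rise of the 10 genes in CAST_142. Atp2a3 was the only gene in both sets of 6.

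The design compares the strains, 6 animals each. In the edgeR quasi-likelihood fit over 12 animals with Benjamini-Hochberg adjustment over all tested genes, 5 of the 9 fitted members passed an adjusted p of 0.05 as higher in CAST and 0 as lower. Over all tested genes 21.5% were called higher in CAST and 42.7% in either direction, and since the 10 genes were named with this contrast in view nothing is read from their count. The 5 were Fat2 (log2 CAST over WSB 5.41 ± 1.87 SE, adjusted p = 0.0346), Cnpy1 (4.92 ± 1.74, 0.0379), Cbln3 (4.90 ± 1.84, 0.0485), Ppp1r17 (4.04 ± 1.25, 0.0184) and Il16 (2.79 ± 0.92, 0.0263). En2 (3.11 ± 1.26, 0.0622), Car8 (2.17 ± 0.90, 0.07), Barhl1 (2.17 ± 0.97, 0.0889) and Slc6a5 (0.31 ± 1.42, 0.880) did not pass. The strain ranges overlapped for each of the 10 genes. The share of all tested genes whose ranges lie apart is not given here, so nothing is read from this overlap. Each call ended without CAST_142. The calls also moved with WSB animals: 1 gene was called higher without WSB_135, 1 without WSB_147, 1 without WSB_169, 1 without WSB_100 and 2 without WSB_138, and 7 without WSB_120. Slc6a5 went from 0.31 to 4.04 and passed without WSB_120.

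Without CAST_142, 0 of the 9 members passed in the same edgeR fit, and 0 had an unadjusted p under 0.05, while 46.9% of all genes tested were called in either direction. The count was also 0 without both CAST_142 and WSB_100, beside 46.6%. The estimates fell to 0.58 ± 1.17 for Cbln3 (adjusted p = 0.721), 1.03 ± 1.11 for Fat2 (0.485), 0.84 ± 1.03 for Cnpy1 (0.546), 1.196 ± 0.64 for Ppp1r17 (0.150) and 0.80 ± 0.44 for Il16 (0.164), as log2 CAST over WSB with SE. The sign turned for En2 (-0.50 ± 0.50, 0.445), Car8 (-0.03 ± 0.25, 0.944) and Slc6a5 (-2.84 ± 1.48, 0.143), and Barhl1 was at 0.49 ± 0.71 (0.609). Over all 12 animals DESeq2 called 0 of the 9, and its adjusted p was NA for 8 of them. With no filter on low counts edgeR called 0 of the 10, with Gabra6 at 5.55 ± 2.25 (adjusted p = 0.0934).

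In the 9 animals left without CAST_142, CAST_170 and WSB_120, libraries left out for their levels of these same genes, the edgeR estimates were small and the errors narrow. Il16 was at 1.29 ± 0.36 (adjusted p = 0.016), Fat2 at 1.0 ± 0.37 (0.048) and Ppp1r17 at 1.04 ± 0.64 (0.225) on the log2 scale of CAST over WSB. En2 was at -0.83 ± 0.28 (0.032) and Car8 at -0.18 ± 0.07 (0.072), both lower in CAST. Cbln3 (0.39 ± 0.42, 0.501) and Cnpy1 (0.26 ± 0.30, 0.531) were near 0, and Gabra6, Barhl1 and Slc6a5 did not pass the filter on low counts. That made 2 genes called higher in CAST, beside 21.2% of tested genes, and 1 lower, beside 21.8%. Since both the genes and the animals were chosen with these levels known, nothing is read from these calls.

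**Figure D4:**
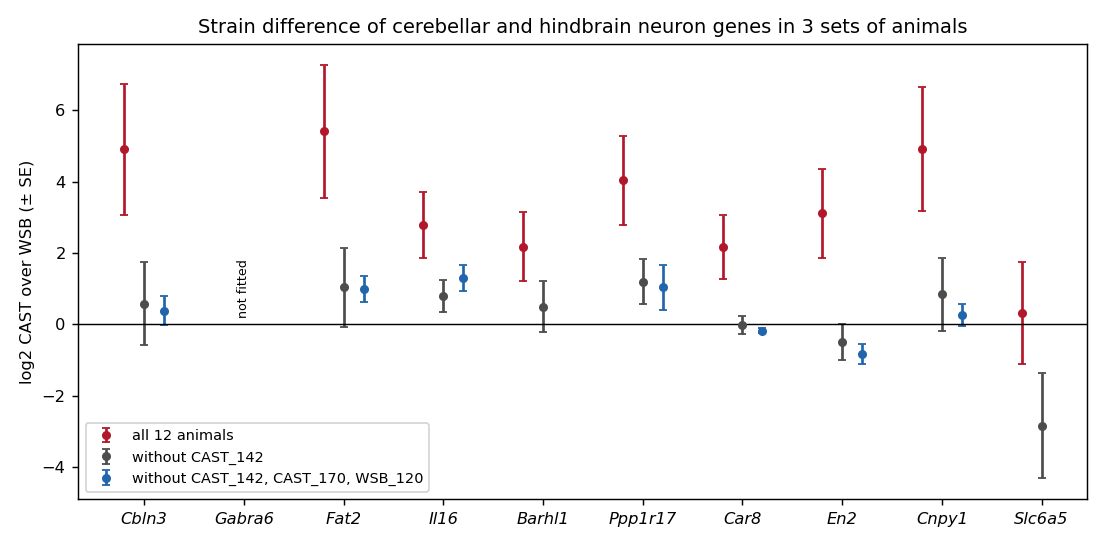
Strain difference of each gene as log2 CAST over WSB with its SE, from the edgeR fit over all 12 animals, without CAST_142, and without CAST_142, CAST_170 and WSB_120. The estimates for the 9 fitted genes lie between 0.31 and 5.41 over 12 animals and between -2.84 and 1.196 without CAST_142.

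Few genes of the other lists differed between the strains in the same edgeR fit, beside 42.7% of all tested genes. Of 16 other granule genes 2 were higher in CAST and 0 lower: Ntf3, a neurotrophin, with a mean of 4.01 ± 1.67 CPM among CAST animals and 1.83 ± 0.588 CPM among WSB animals (SD, n = 6, log2 difference 1.13 ± 0.26 SE, adjusted p = 0.00315), and Tmem266, a membrane protein of granule cells, with means of 39.5 ± 34.1 and 18.1 ± 3.36 CPM (1.13 ± 0.37, 0.0269). Both kept the call without CAST_142, at 0.86 and 0.50. Of 9 hindbrain and brainstem neuron genes 2 were higher, and both belong to noradrenergic neurons: the noradrenaline transporter Slc6a2 (5.05 ± 0.65, 2.56e-05) and dopamine beta-hydroxylase Dbh (1.96 ± 0.67, 0.0307). Without CAST_142 Slc6a2 was at 4.27 (adjusted p = 1.89e-08) and Dbh at 0.86 (0.0575), so the call of Dbh rested on that library.

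Slc6a2 had 1.19 to 1.79 CPM in the 5 CAST animals other than CAST_142, 7.88 CPM in CAST_142 and 0.0302 to 0.150 CPM in WSB, with no overlap of the strains. It thus differed from Slc6a5, the other transporter of hindbrain neurons described here, whose strains overlapped, a contrast of 2 genes only. Among the midbrain-hindbrain patterning genes 1 of 7 was lower in CAST, the secreted signal Wnt1 (mean level 0.979 ± 0.366 CPM for CAST animals, 2.502 ± 0.401 CPM for WSB animals, log2 difference -1.35 ± 0.24, edgeR adjusted p = 0.000423). A2m, a protease inhibitor gene, was the 1 of 7 interneuron and Bergmann glia genes that was higher in CAST (1.81 ± 0.47, 0.00656).

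Of the forebrain lists, edgeR called 0 of 11 striatal genes, 0 of 12 cortex and hippocampus genes and 0 of 12 thalamus and hypothalamus genes, and DESeq2 called 0 in each. An unadjusted p under 0.05 was given to 0 genes of each of these lists. The call was 0 of 7 for pan-neuronal genes with edgeR and 0 with DESeq2, with 2 at an unadjusted p under 0.05. The most abundant tested genes of these lists were the phosphodiesterase gene Pde10a in striatum, with CAST and WSB means of 522.1 ± 193.6 and 560.8 ± 71.6 CPM, the vesicular glutamate transporter gene Slc17a7 in cortex, at 949.2 ± 131.2 and 1070.3 ± 128.2 CPM, and the kinase gene Prkcd in thalamus, at 47.0 ± 25.1 and 55.8 ± 43.3 CPM (SD, n = 6). In CAST 1 gene each was lower among the olfactory bulb (Doc2g), choroid plexus (Clic6) and oligodendrocyte genes (Cldn11).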

How the data were processed

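The 24 deposited files held whole-number read counts per gene for 12 animals on 2 lanes. Tools listed in the submitters' processing notes are cutadapt, HTSeq, DESeq2 and TopHat2 (2.1.1), without their roles. The sources used here do not state the genome build, annotation, strand setting or library kit. Symbols and positions came from GENCODE M21 (GRCm38) for 53360 of 53465 gene identifiers.

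Lanes 5 and 6 were summed per animal. Of all counted reads, 62.9% to 68.0% fell on genes in each animal, and rows that name no gene were left out: no feature 4.04% to 4.95%, ambiguous 11.1% to 16.5%, not unique 15.6% to 17.5%. Genes were filtered with filterByExpr, scaled by TMM and tested with edgeR 4.0.16 (robust quasi-likelihood, R 4.3.3) for strain, with Benjamini-Hochberg adjustment over all tested genes and a threshold of 0.05. The fit was tested on simulated data. CPM was taken after TMM scaling, and log2 values, the 2-fold counts included, used a pseudocount of 0.05 CPM. Alternatives were RLE and upper-quartile scaling, DESeq2 1.42.0, no filter, single lanes, and leaving out animals. Members and lists were chosen with earlier results of these data known. Genes named from a list are up to 2 called genes of lowest p, or, with none called, the gene of highest level. The strain result of 1 gene on the Purkinje list is not reported here.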

Additional observations from a re-analysis of the deposited data

Results flagged for a closer look

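Within each strain of 6 animals, a level was singled out where the gap of the highest or lowest animal to its nearest neighbour exceeded 0.625 of the range (Dixon's limit at 95%). Of 70 groups searched 36 passed, where chance flags about 1 in 20 groups. The count cannot be read against chance, because the genes searched were chosen with their levels known or for a pattern like that of the 10. The groups are also not independent: 22 of the 36 are CAST_142 and 12 are WSB_120.

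CAST_142 stood apart for each of the 10 genes: Cbln3 at 343.7 CPM, Gabra6 at 332.9, Fat2 at 549.7, Cnpy1 at 154.3, En2 at 62.4, Ppp1r17 at 68.1, Il16 at 60.8, Car8 at 375.6, Barhl1 at 8.70 and Slc6a5 at 19.3 CPM. WSB_120 stood apart for 8 of the 10, the exceptions being Ppp1r17 and Il16: Cbln3 at 9.26 CPM, Gabra6 at 6.58, Fat2 at 10.3, Cnpy1 at 3.64, En2 at 2.78, Car8 at 26.2, Barhl1 at 1.37 and Slc6a5 at 16.1 CPM. CAST_170 could not be singled out this way, because CAST_142 stretched the range of its strain.

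Among the other genes named, CAST_142 was apart for Ntf3 (7.34 CPM), Tmem266 (109.1), A2m (34.0), Slc6a2 (7.88), Dbh (4.32), Crtam (60.8), Atp2a3 (112.8), Tmem229b (75.5), Fnip2 (41.4), Phactr4 (22.3), Cep76 (39.8) and Smarcd2 (75.6 CPM). WSB_120 was apart for Crtam (1.24 CPM), Tmem229b (54.6), Pex16 (18.9) and Smarcd2 (23.9 CPM). CAST_202 was apart for Prkcd, a kinase gene of the thalamus list, at 96.0 CPM, and WSB_100 for Doc2g, a gene of the olfactory bulb list, at 13.8 CPM.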

How the results depend on the processing

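RLE and upper-quartile scaling changed no count of called genes among the members or on the other lists, and among gene values only the r of Ppp1r17 within WSB turned sign (-0.015, RLE). Members called higher in CAST numbered 5, and 0 with no filter, 3 on lane 6 alone, 0 without both CAST_142 and WSB_100, 2 (and 1 lower) without CAST_142, CAST_170 and WSB_120, an alternative chosen after seeing the data, and 0 to 7 when 1 animal was left out. With DESeq2 the number was 0, but its adjusted p was NA for 8 of the 9 members tested, so those 8 could not be called. The cause of these moves was not tested beyond the animals left out.

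Leaving 1 animal out gave ranges of log2 CAST over WSB of -0.50 to 3.48 for En2, -0.026 to 2.39 for Car8, -2.84 to 4.04 for Slc6a5, -0.20 to 0.045 for Pde10a, -0.58 to 0.19 for Prkcd, -0.0022 to 0.14 for Phactr4, -0.083 to 0.71 for Cep76, -0.047 to 0.028 for Traf3 and -0.0046 to 0.065 for Mapkapk2. Without both CAST_142 and WSB_100 the sign turned for En2 (-0.63), Car8 (-0.089), Slc6a5 (-3.09), Pde10a (0.053), Phactr4 (-0.015), Cep76 (-0.098), Smarcd2 (-0.0081) and Mapkapk2 (-0.0090). Without the 3 libraries it turned for En2 (-0.83), Car8 (-0.18), Prkcd (0.078), Cep76 (-0.077) and Mapkapk2 (-0.0080).

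Counts over the other lists were small. DESeq2 called 1 other granule, 2 Purkinje, 2 interneuron or Bergmann glia and 1 hindbrain gene higher in CAST and 2 olfactory bulb genes lower. Its adjusted p was NA for 5 of 16 granule, 3 of 18 Purkinje, 2 of 7 interneuron or Bergmann glia and 1 of 9 hindbrain genes, which could not be called. No filter gave 1 granule gene higher and 2 patterning genes lower. Lane 5 alone gave 1 hindbrain and 1 thalamus gene higher, and lane 6 alone 1 hindbrain gene higher. Without both CAST_142 and WSB_100, 1 Purkinje, 1 hindbrain and 1 cortex gene were higher, and 1 granule, 2 Purkinje, 2 interneuron or Bergmann, 1 hindbrain, 2 patterning, 2 choroid plexus, 2 oligodendrocyte and 1 pan-neuronal gene lower. Without the 3 libraries 1 Purkinje, 2 interneuron or Bergmann, 1 hindbrain and 1 cortex gene were higher, 1 granule, 2 Purkinje, 2 interneuron or Bergmann, 1 striatal and 1 pan-neuronal gene lower, and 0 olfactory bulb and 0 oligodendrocyte genes lower. With 1 animal left out the granule list gave 1 to 2 higher and 0 to 1 lower, Purkinje 0 to 2 higher and 0 to 2 lower, interneuron or Bergmann 1 to 2 higher and 0 to 2 lower, hindbrain 1 to 2 higher and 0 to 1 lower, patterning 1 to 2 lower, cortex 0 to 1 higher, olfactory bulb 1 to 3 lower, choroid plexus 1 to 2 lower, oligodendrocyte 1 to 3 lower and pan-neuronal 0 to 1 lower.

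Of members at least 2-fold above their strain, lane 5 alone gave 1 in CAST_202 and 0 in WSB_147, and lane 6 alone gave 1 in CAST_200, 1 in CAST_201, 0 in WSB_138 and 2 in WSB_147. With the Purkinje list in place of the granule list, r within WSB turned positive for Cbln3 (0.45), Gabra6 (0.33), Fat2 (0.30), Cnpy1 (0.49), En2 (0.67), Il16 (0.75), Car8 (0.43), Barhl1 (0.49) and Slc6a5 (0.41), and no relation passed the exact permutation test. Without WSB_100, r with the granule list ran from -0.64 for Barhl1 to 0.02 for Ppp1r17 over 5 animals, and no relation passed the exact permutation test. No paired analysis was possible because the strains share no animal numbers. Members below 1 CPM rest on few reads per library, so their differences among the low libraries are not firm.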
